A study of Homo sapiens with 9 samples.

Results

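The experiment compared HCT116 cells that overexpressed the long noncoding RNA CRLM1 (CRLM1-OE) with HCT116 cells that carried an antisense CRLM1 construct (Anti), and it took 6 of the 9 samples of the series, 3 per group, by their labels. The remaining 3 samples carried the free plasmid (Ctrl), and their values stand beside some genes for orientation. HCT116 is a human colorectal carcinoma line with epithelial features. The study's methods describe CRLM1 cloned into a pTSB vector and a lentiviral form of it with GFP and puromycin resistance. Its results describe the cells sequenced here as transfected with the CRLM1, antisense or free plasmid construct. Whether Anti and Ctrl had the same vector and drug selection is not given in the sources used here. How many clones each culture held was not given in the sources used here. The study calls the samples of a group biological replicates, and the labels number them without saying what separates them. The p-values refer to these samples only. Where the replicates of a gene were uneven, its SE could understate their spread. Polyadenylated RNA was sequenced, and levels are given as FPKM, an expression measure normalised to the length of the exons and the size of the library.

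CRLM1, also known as LINC01767, is a long intergenic noncoding RNA of chromosome 1. Long noncoding RNAs are transcripts without a protein product, many of which bind proteins in the nucleus, and a common control for an overexpressed RNA is its antisense strand, which has the same length and the same GC content but the complementary bases. hnRNPK, the partner protein the study worked with, is an RNA-binding protein that prefers runs of C. The comparison with Anti therefore asked which genes differed between cells given the sense and cells given the antisense strand.

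The gene-specific parts of the cloning primers bounded chr1:56414963-56415966 on the plus strand (GRCh38), within the gene LINC01767 at chr1:56414918-56417137, and are shown because they define what was expressed.
CRLM1 forward primer: ACCAGGTACAAAATCCCCTGG
CRLM1 reverse primer: TGGCTTGAACAATAAAAAGAGTTTATT
Both primers matched 3 annotated transcripts of GENCODE, and the insert they bounded was 545 bases in LINC01767-201, 631 in LINC01767-204 and 373 in LINC01767-205. Of these, LINC01767-201 matches the study's description of the transcript by length and exon number. In LINC01767-201, which has 4 exons, C made up 26.4% of the sense insert and 22.4% of its antisense copy, and CCC occurred 11 times in the sense and 6 times in the antisense sequence, overlapping matches included. The 90 bases with the most C on the sense strand, insert bases 429 to 518 (from chr1:56415850 to 56415939), are shown beside their antisense copy, with CCC runs in capitals.
Sense, CRLM1-OE: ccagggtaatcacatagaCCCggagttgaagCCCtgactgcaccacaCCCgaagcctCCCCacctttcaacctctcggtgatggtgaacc
Antisense, Anti: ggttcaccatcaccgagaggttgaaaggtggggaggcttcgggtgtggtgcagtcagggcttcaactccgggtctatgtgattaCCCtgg
The sense stretch was 36.7% C with 5 occurrences of CCC, counted in the same way, and the antisense stretch was 21.1% C with 1. Choosing the stretch by the C of the sense strand favoured this gap, which over the whole insert was 26.4% against 22.4%. These letters describe the 2 strands, and binding was not measured in these libraries.

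CRLM1 itself, listed under the older name RP4-710M16.2, checked the labels. Its FPKM values were 1483, 1582 and 1500.3 in CRLM1-OE and 78.5, 76.6 and 70.9 in Anti, while all 3 Ctrl samples were listed at 0. The 3 CRLM1-OE samples lay 19.5-fold above the 3 Anti samples, with a log2 fold change (log2FC) of 4.29 ± 0.024 (SE). The sources used here do not give whether the counting used strand, so reads from the sense and the antisense transcript of this locus cannot be told apart, and the Anti values may hold either. HNRNPK, which encodes the partner protein, had FPKM values of 152, 155 and 149.6 in CRLM1-OE and 173, 174 and 175 in Anti, and it fell slightly (log2FC -0.24 ± 0.018). In bulk samples such as these, fewer cells with a transcript and less of it per cell cannot be told apart.

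The 6 libraries held 33302292 to 41931753 counts, so 3 counts stood for 0.0715 to 0.0901 CPM, that is, counts normalised to the size of the library. This was no floor for testing, since a gene needed only 1 count in the 6 samples to be tested. Between 23321 and 23984 genes were detected per library. The 10 most counted genes took 11.2% to 11.3% of the counts in CRLM1-OE and 12.4% to 12.5% in Anti, and mitochondrial genes took 5.63% to 5.71% and 7.17% to 7.28%. Replicates of a group differed by more than counting noise, and no library stood apart from its group. Of the intestinal epithelium markers, 3 of 18 measured members were higher and 5 lower at the adjusted p described next, with EPCAM at 74.4 against 93.1 FPKM, the simple-epithelium keratins KRT18 at 426 against 826 FPKM and KRT19 at 3106 against 2305 FPKM, the epithelial factor ELF3 at 69.6 against 55 FPKM, HNF4A, a factor of gut and liver epithelium, at 1.38 against 0.997 FPKM, the intestinal factor CDX2 at 3.0 against 3.08 FPKM, and VIL1, the villin of differentiated enterocytes, near 0 in all 6 libraries. Of the 16 markers of blood, vessel, fibroblast, liver and glial cells, 4 reached a mean count of 10 (COL1A1, ACTA2, CD68 and VWF) and 0 were called. COL1A1 and ACTA2, which fibroblasts and muscle cells express, were at 2.2 against 1.31 FPKM and 6.94 against 4.82 FPKM, the macrophage marker CD68 was at 1.89 against 1.4 FPKM, and these 3 rose (for CD68, edgeR adjusted p = 0.0108, and 0.0689 without Anti replicate 1), while PTPRC, ALB, DCN and GFAP were near 0.

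Genes were compared with edgeR's quasi-likelihood test. A gene is said to have risen or fallen where its Benjamini-Hochberg adjusted p was at most 0.05, and to have been called where its fold change was also at least 2. Of 30183 genes tested, 933 (3.09%) were called up and 772 (2.56%) called down in CRLM1-OE, while 5164 (17.1%) were higher and 5587 (18.5%) lower by the adjusted p alone. Among the 13014 genes whose mean count reached 50, the class in which most genes named here lie, 33.3% were higher and 38.7% lower by the adjusted p, 2.42% were called up and 2.9% called down. These shares are the background against which the counts of each gene group should be read. Of the called genes, 426 (25%) had a mean count under 10. CPM values of the groups overlapped in 130 of the 1184 called genes with a mean count under 100 and in 0 of the 521 above it. No gene was at 0 in every sample of one group and at 20 counts or more in every sample of the other.

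**Figure D1:**
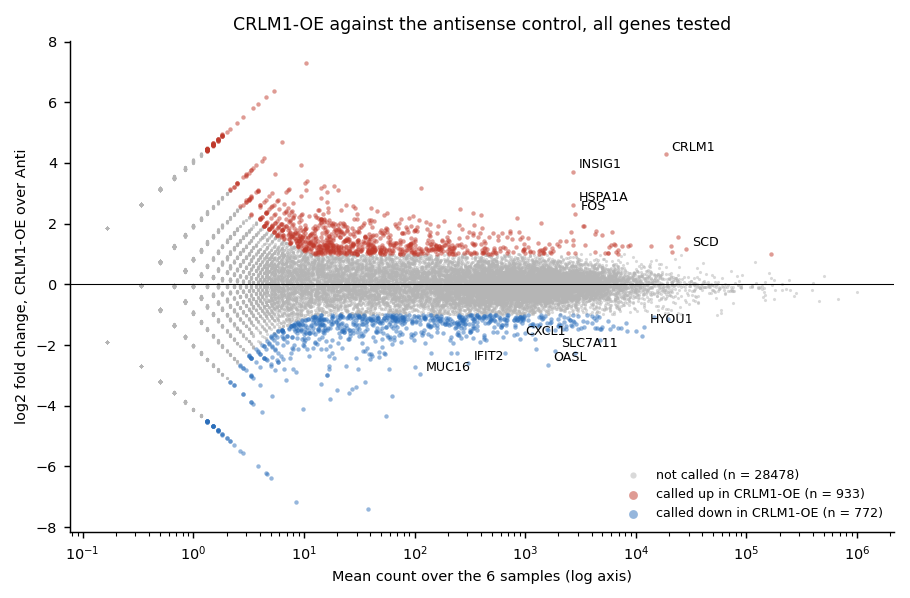
Log2FC of CRLM1-OE over Anti (vertical axis) against the mean count of the 6 samples (horizontal, log scale), 1 point per gene tested, with genes called up in red, called down in blue and the rest in grey. CRLM1 is the highest labelled point at 4.29, followed by INSIG1 at 3.70, and MUC16 the lowest labelled point at -2.96.

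For called genes whose mean count reached 100, the highest log2FC values after CRLM1 belonged to INSIG1 (3.70), ATG9B (3.19), HSPA1A (2.62), HSPA6 (2.49), GSDMB (2.34), FOS (2.32), LIPG (2.30), FOSB (2.18), ASIC4 (2.12), RP11-7K24.3 (2.10) and AOC3 (2.05). The lowest belonged to MUC16 (-2.96), LINC00941 (-2.71), OASL (-2.64), IFIT2 (-2.60), ITPRIPL2 (-2.28), IFIT3 (-2.26), IFIT1 (-2.25), ATF5 (-2.25), PIGW (-2.25), SLC7A11 (-2.19), FERMT1 (-2.13) and POGLUT1 (-1.93). The genes at the upper end included the sterol regulator INSIG1, inducible chaperones and AP-1 subunits, and those at the lower end included 4 interferon-stimulated genes, the amino acid response factor ATF5 and the cystine transporter SLC7A11. Each of these 24 genes, CRLM1 included, had CPM values that did not overlap between the groups. This followed from the choice, since 0 of the 521 called genes in this class overlapped. The share of all tested genes without overlap is not given here, so a lack of overlap describes the gene named and is no further evidence.

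The enzymes of cholesterol synthesis rose in CRLM1-OE, and the genes that control them rose in part. Cells make cholesterol from acetyl-CoA through the mevalonate pathway, and the membrane-bound factors SREBF1 and SREBF2 turn on its enzymes once SCAP has carried them to the Golgi, while INSIG1 and INSIG2 hold SCAP back when sterol is plentiful. INSIG1 is itself a target of this pathway. Its FPKM values were 37.3, 39.3 and 37.5 in CRLM1-OE and 2.53, 2.97 and 3.02 in Anti, 13-fold higher in CRLM1-OE (log2FC 3.70 ± 0.043, edgeR adjusted p = 1e-300, the smallest value written). Ctrl lay between, at 5.39, 5.99 and 5.84, so the log2FC of CRLM1-OE over Ctrl was 2.62 and that of Anti over Ctrl -1.11. These side comparisons share samples with the main one and with each other.

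Of the 21 sterol synthesis enzymes measured, 21 were higher and 0 lower in CRLM1-OE, 9 were called up, and their median log2FC was 0.98, beside -0.02 for the 16030 genes whose mean count reached 10. The early step of HMG-CoA formation was represented by HMGCS1, with FPKM values of 27, 26.1 and 26.9 in CRLM1-OE and 7.59, 7.97 and 7.87 in Anti (log2FC 1.73 ± 0.036). IDI1, the isopentenyl diphosphate isomerase, had the largest change of the list, with 23.1, 22.6 and 22.6 in CRLM1-OE and 5.59, 5.54 and 5.01 in Anti (log2FC 2.04 ± 0.049). In both genes the lowest CRLM1-OE sample lay above the highest Anti sample.

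Later steps moved the same way. Squalene synthase FDFT1 reached 51.6 against 15.2 FPKM on average (log2FC 1.71 ± 0.026), squalene epoxidase SQLE 31.5 against 11.1 FPKM (log2FC 1.46 ± 0.035), the methylsterol oxidase MSMO1 49.5 against 12.7 FPKM (log2FC 1.92 ± 0.033) and DHCR7, the last reductase of one branch, 79.9 against 30.6 FPKM (log2FC 1.34 ± 0.026). ACAT2, which joins acetyl-CoA units ahead of all these steps, went from 2.93 to 9.93 FPKM (log2FC 1.72 ± 0.06). The smallest change among the enzymes was that of phosphomevalonate kinase PMVK at 0.19 ± 0.05. Relative to Ctrl, Anti lay slightly lower for most of these genes, with log2FC of Anti over Ctrl of -0.35 for IDI1, -0.47 for FDFT1 and -0.09 for SQLE, so the larger part of each difference lay between CRLM1-OE and Ctrl (1.71, 1.27 and 1.40).

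Among the 15 genes of SREBP control and LDL uptake, 10 were higher, 2 lower and 3 did not pass, 6 were called up, and the median log2FC was 0.38. The sterol carrier STARD4 had FPKM values of 6.14, 6.05 and 5.69 in CRLM1-OE and 1.96, 1.82 and 2.1 in Anti (log2FC 1.56 ± 0.057), and the lipid phosphatase LPIN1 had 3.39, 3.32 and 3.47 in CRLM1-OE and 1.29, 1.39 and 1.52 in Anti (log2FC 1.24 ± 0.068). In both genes every CRLM1-OE value was over every Anti value.

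The 2 transcription factor genes differed. SREBF2, the main driver of cholesterol genes, rose from 33.5, 33.5 and 34.9 FPKM in Anti to 85.2, 85.1 and 83.2 in CRLM1-OE (log2FC 1.27 ± 0.021). Ctrl lay between, at 50.4, 48.7 and 49.8, with a log2FC of 0.65 for CRLM1-OE over Ctrl and -0.64 for Anti over Ctrl. SREBF1, more tied to fatty acid synthesis, was at 26.3, 26 and 26.2 and 23.2, 22.7 and 22.8 (log2FC 0.15 ± 0.027), a small rise that turned to -0.00992 when the trend of fold change with GC content and length was removed. SCAP, the escort protein, had overlapping values of 14, 14.2 and 14.3 in CRLM1-OE and 13.6, 13.8 and 14.2 in Anti (log2FC -0.01 ± 0.034, edgeR adjusted p = 0.816), and a log2FC of -0.14 (adjusted p = 5.68e-05) with that trend removed. The log2FC can differ from the ratio of FPKM values because edgeR rescales the library sizes and FPKM does not. The proteases that release the factors, MBTPS1 and MBTPS2, fell (log2FC -0.43 ± 0.027 and -0.79 ± 0.076).

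Of 14 fatty acid synthesis enzymes, 11 were higher and 3 lower, with a median log2FC of 0.49. The desaturase SCD had FPKM values of 173, 175 and 172 in CRLM1-OE and 74.7, 75.8 and 76.4 in Anti and was the only one called (log2FC 1.15 ± 0.018). Fatty acid synthase FASN had 93.6, 94.1 and 92.8 in CRLM1-OE and 45.7, 45.6 and 46.5 in Anti (log2FC 0.98 ± 0.018), just under the 2-fold limit. The desaturase FADS1 and malic enzyme ME1 fell (log2FC -0.40 ± 0.032 and -0.45 ± 0.04). In the 6 cholesterol efflux genes, 2 were higher, 3 lower and 0 were called, with ABCA1, the efflux pump, low in all libraries (0.12, 0.13 and 0.10 in CRLM1-OE and 0.20, 0.18 and 0.15 in Anti FPKM, log2FC -0.67 ± 0.18).

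The promoter of INSIG1, whose difference was the largest after CRLM1, is shown from 250 bases before to 50 after its RefSeq start, chr7:155297628-155297927 (GRCh38.p14, plus strand).
INSIG1: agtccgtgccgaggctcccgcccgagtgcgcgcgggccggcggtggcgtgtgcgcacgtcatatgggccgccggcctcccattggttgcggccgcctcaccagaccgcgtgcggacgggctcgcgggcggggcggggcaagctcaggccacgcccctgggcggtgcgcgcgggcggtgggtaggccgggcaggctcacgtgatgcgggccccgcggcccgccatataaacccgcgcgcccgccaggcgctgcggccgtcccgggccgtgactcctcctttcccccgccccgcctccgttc
It holds no match on either strand to TCACNCNAC, a sterol element type of motif that 2.55% of 35116 such promoters hold, nor to the interferon and heat-shock types of motif given with their promoters further on. The window of IDI1 around the first of its 3 listed starts holds none of them either. The absence of a match says only that these letters are not in this window.

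**Figure D2:**
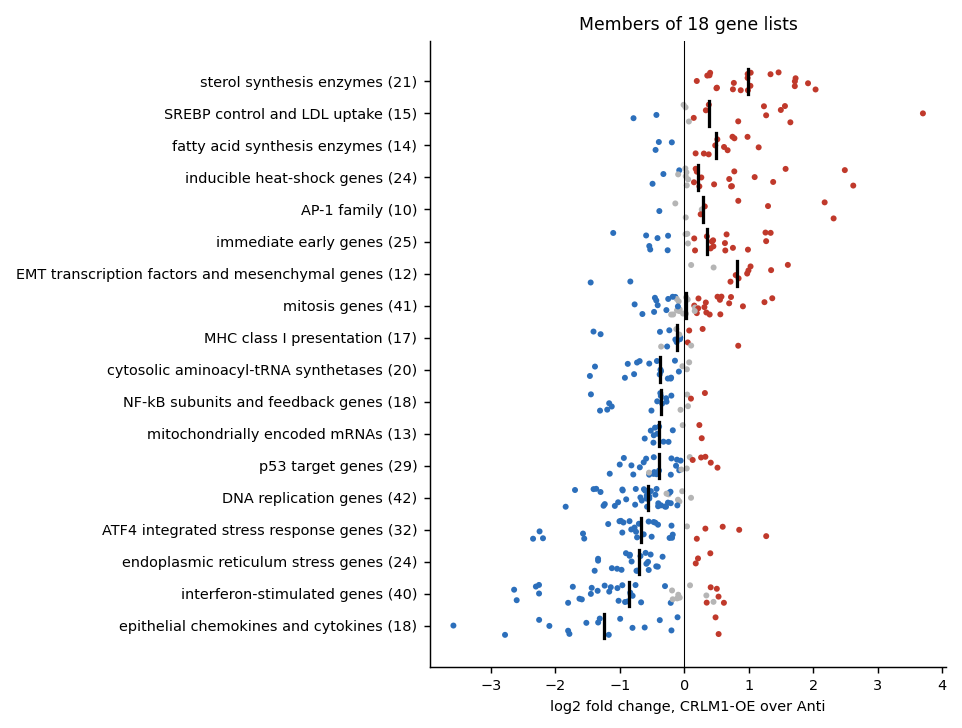
Log2FC of CRLM1-OE over Anti (horizontal axis) for the measured members of 18 gene groups (rows), 1 point per gene whose mean count reached 10, in red or blue where the gene was higher or lower at an adjusted p of at most 0.05 and grey where it did not pass, with black bars at the medians. The sterol synthesis enzymes lie wholly to the right of 0 around a median of 0.98, and the chemokine and interferon-stimulated groups lie mostly to the left, with medians of -1.24 and -0.86.

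Interferon-stimulated genes were lower in CRLM1-OE than in Anti. These genes encode antiviral proteins that sense foreign RNA, block translation or degrade nucleic acid, and are switched on when interferon receptors activate factors of the STAT and IRF families, or directly by IRF3. Of 45 measured members, 27 were lower, 5 higher and 13 did not pass. 17 were called down, 0 were called up, and the median log2FC was -0.86 over the 40 members whose mean count reached 10. Relative to Ctrl, the median log2FC of these members was -0.43 in CRLM1-OE and 0.407 in Anti, so the difference lay on both sides of Ctrl.

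OASL, a 2'-5'-oligoadenylate synthetase-like protein that enhances RNA sensing, had FPKM values of 3.04, 3.11 and 3.62 in CRLM1-OE and 20.6, 19.1 and 19.4 in Anti, 6.24-fold lower in CRLM1-OE (log2FC -2.64 ± 0.048, edgeR adjusted p = 1e-300). IFIT2 had 0.64, 0.50 and 0.62 in CRLM1-OE and 3.48, 3.37 and 3.6 in Anti (log2FC -2.60 ± 0.11), IFIT3 had 0.80, 0.85 and 0.66 in CRLM1-OE and 3.42, 3.73 and 3.5 in Anti (log2FC -2.26 ± 0.11) and IFIT1 had 0.32, 0.45 and 0.41 in CRLM1-OE and 1.78, 1.69 and 1.89 in Anti (log2FC -2.25 ± 0.12). The IFIT proteins bind viral RNA and hold back its translation, and each of the 3 genes, like OASL, had all CRLM1-OE values below all Anti values. Ctrl lay between the groups, at 8.37, 9.21 and 8.18 for OASL and 1.44, 1.39 and 1.37 for IFIT2. For OASL the log2FC of CRLM1-OE over Ctrl was -1.51 and that of Anti over Ctrl 1.11, so part of the difference lay on the Anti side.

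The same held for the RNA helicases that detect viral RNA. DDX58, which encodes RIG-I, had FPKM values of 1.13, 1.02 and 0.98 in CRLM1-OE and 3.49, 3.57 and 3.56 in Anti (log2FC -1.80 ± 0.083), DDX60 had a log2FC of -1.73 ± 0.11, and IFIH1, which encodes MDA5, had 1.03, 0.95 and 0.83 in CRLM1-OE and 1.91, 2.0 and 1.68 in Anti (log2FC -1.04 ± 0.1). BST2, the tether that holds budding virus at the membrane, was at 4.12, 3.8 and 4.94 in CRLM1-OE and 11.3, 10.1 and 12.8 in Anti (log2FC -1.45 ± 0.091). The ubiquitin ligase DTX3L and OAS1, a 2'-5'-oligoadenylate synthetase, fell as well (log2FC -1.63 ± 0.06 and -1.24 ± 0.16). In none of these genes did the groups overlap.

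The most abundant members of the list fell only a little or rose. ISG15, a ubiquitin-like modifier, had FPKM values of 351, 349 and 347 in CRLM1-OE and 416, 409.9 and 424 in Anti, a fall of small size (log2FC -0.30 ± 0.02), and its Ctrl values of 275, 284 and 296 were the lowest of the 3 groups. IFITM3, which blocks viral entry, rose, with 347, 344 and 343 in CRLM1-OE and 263, 260.4 and 264 in Anti (log2FC 0.35 ± 0.02), and so did IFI6 (log2FC 0.61 ± 0.058).

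Of the 27 interferons, receptors and signalling genes, 8 were higher, 10 lower and 9 did not pass, and the median log2FC was -0.04, close to that of all genes. Ligands were hardly detected, with the interferon lambda gene IFNL1 at 0, 0 and 0 counts in CRLM1-OE and 15, 6 and 7 in Anti. Receptors IFNAR1 and IFNGR2 fell (log2FC -0.77 ± 0.052 and -1.09 ± 0.036), as did TLR3, the endosomal RNA sensor, with 0.16, 0.16 and 0.17 in CRLM1-OE and 0.59, 0.48 and 0.52 in Anti FPKM (log2FC -1.74 ± 0.17). Among the signal transducers, STAT2 rose, with 7.06, 6.93 and 6.26 in CRLM1-OE and 3.44, 3.35 and 3.6 in Anti (log2FC 0.92 ± 0.062). The kinase TYK2 and the factor IRF7 rose (log2FC 0.73 ± 0.052 and 0.75 ± 0.058).

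MHC class I genes, which carry peptides to the cell surface and respond to interferon, changed little. Of 18, 9 were lower and 4 higher, with a median log2FC of -0.12. The peptide-trimming protease ERAP1 and the immunoproteasome subunit PSMB10 were called down, with 1.0, 1.03 and 1.16 in CRLM1-OE and 2.6, 2.94 and 2.69 in Anti FPKM (log2FC -1.41 ± 0.069) and 2.18, 2.38 and 2.65 in CRLM1-OE and 6.61, 5.6 and 4.88 in Anti (log2FC -1.30 ± 0.11). B2M, the light chain, had overlapping values of 217, 219 and 215 in CRLM1-OE and 221, 221 and 217 in Anti (log2FC -0.06 ± 0.018), and its sign turned, at 0.016, once the trend with GC content and length was removed.

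Promoters of 2 interferon-stimulated genes with RefSeq entries are shown, IFI44 at chr1:78649539-78649838 and IFIT3 at chr10:89327747-89328046 (GRCh38.p14, plus strand, each around the first of its 2 listed starts), with TTTCNNTTT, an interferon-response type of motif, and GAANNTTC, a heat-shock type, in capitals.
IFI44: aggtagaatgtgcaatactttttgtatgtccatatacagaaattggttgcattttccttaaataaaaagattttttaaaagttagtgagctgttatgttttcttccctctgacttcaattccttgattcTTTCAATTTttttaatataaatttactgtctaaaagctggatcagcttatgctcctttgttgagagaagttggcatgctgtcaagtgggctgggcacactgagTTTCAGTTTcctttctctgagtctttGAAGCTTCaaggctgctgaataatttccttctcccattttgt
IFIT3: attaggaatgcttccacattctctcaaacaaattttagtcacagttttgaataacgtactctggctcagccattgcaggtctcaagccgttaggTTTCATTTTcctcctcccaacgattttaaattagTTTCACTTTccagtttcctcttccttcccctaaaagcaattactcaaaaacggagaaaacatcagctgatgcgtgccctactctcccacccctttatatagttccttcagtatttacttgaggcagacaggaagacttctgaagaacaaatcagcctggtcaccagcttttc
TTTCNNTTT begins at -121 and -18 from the start in IFI44 and at -156 and -122 in IFIT3, and 10.5% of the 35116 promoters hold it on either strand. IFI44 also holds GAANNTTC at 9, which 6.77% of promoters hold. The 2 genes shared a fall, IFI44 with FPKM values of 0.28, 0.25 and 0.23 in CRLM1-OE and 1.3, 1.17 and 1.22 in Anti (log2FC -2.30 ± 0.23). OASL and IFIT2 are named without a sequence.

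Epithelial chemokines and cytokines were lower as a group. Chemokines are secreted proteins that draw leukocytes, and the CXCL family of epithelial cells attracts neutrophils and is largely driven by NF-kB. Of 25 measured members, 16 were lower, 2 higher and 7 did not pass. 10 were called down, 0 called up, and the median log2FC was -1.24 over 18 members. Their median log2FC relative to Ctrl was -0.645 in CRLM1-OE and 0.591 in Anti. CXCL1 had FPKM values of 9.19, 8.52 and 8.51 in CRLM1-OE and 30.4, 28.7 and 29.7 in Anti (log2FC -1.80 ± 0.059, edgeR adjusted p = 9.32e-205). CXCL2 had 2.42, 2.44 and 2.14 in CRLM1-OE and 7.64, 7.89 and 7.83 in Anti (log2FC -1.78 ± 0.1), and CXCL8, which encodes interleukin 8, had 5.22, 5.53 and 5.58 in CRLM1-OE and 13.8, 13.4 and 12.7 in Anti (log2FC -1.34 ± 0.06). All 3 genes had higher values in every Anti sample, and Ctrl lay between (18.5, 18.4 and 18.8 for CXCL1).

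CXCL3 (log2FC -1.52 ± 0.093), IL23A, a subunit of interleukin 23 (log2FC -1.31 ± 0.18), and the cytokine IL32 (log2FC -1.17 ± 0.055) also fell. CCL20, which attracts CCR6-bearing cells, was low and uneven, with 0.32, 0.090 and 0.27 in CRLM1-OE and 0.81, 1.62 and 0.54 in Anti FPKM (log2FC -2.10 ± 0.34). The inflammatory cytokine TNF was at 6, 3 and 3 counts in CRLM1-OE and 63, 38 and 41 in Anti. Of the 18 NF-kB subunits and feedback genes, 13 were lower and 2 higher, 5 were called down and the median log2FC was -0.35. NFKBIA, the inhibitor that NF-kB itself induces, had 44.2, 41.8 and 42.6 in CRLM1-OE and 96.2, 94.2 and 95.4 in Anti (log2FC -1.20 ± 0.026), and the subunit gene NFKB1 had 4.78, 4.67 and 4.44 in CRLM1-OE and 9.7, 9.74 and 9.98 in Anti (log2FC -1.13 ± 0.042). TNFAIP2 (log2FC -1.45 ± 0.029), the survival factor BIRC3 (-1.31 ± 0.033) and the adhesion molecule ICAM1 (-1.17 ± 0.059) were the other called members, while RELA was at 38.4 against 35.8 FPKM (log2FC 0.06 ± 0.026, edgeR adjusted p = 0.0812, and 1.71e-05 on total counts) and NFKB2 rose (log2FC 0.32 ± 0.02).

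**Figure D3:**
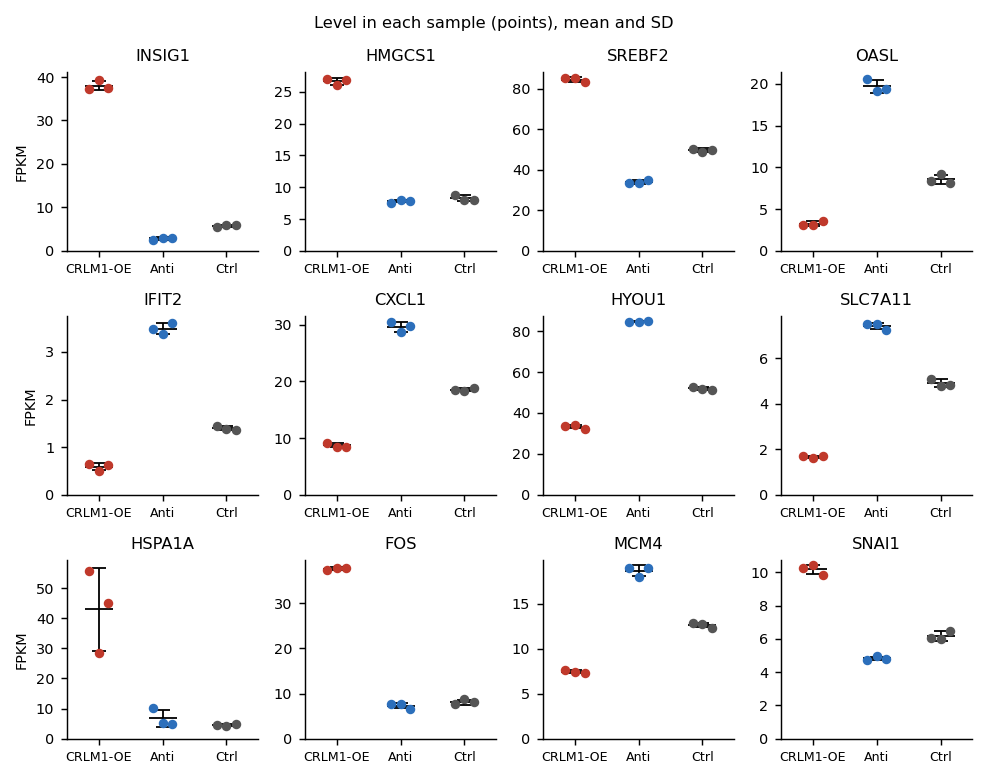
FPKM (vertical axis, from 0) of 12 genes in the 3 CRLM1-OE, 3 Anti and 3 Ctrl samples, 1 point per sample, with the mean and SD of each group as bars. INSIG1, HMGCS1, SREBF2, HSPA1A, FOS and SNAI1 are highest in CRLM1-OE, and OASL, IFIT2, CXCL1, HYOU1, SLC7A11 and MCM4 are highest in Anti with Ctrl between.

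Genes of the endoplasmic reticulum folding machinery fell. When unfolded protein builds up in this compartment, the sensors ATF6, ERN1 and EIF2AK3 raise chaperones, disulfide isomerases and the degradation machinery. Of 24 members, 21 were lower and 3 higher, 5 were called down and the median log2FC was -0.70. HSPA5, which encodes the main chaperone BiP, had FPKM values of 735, 739 and 717 in CRLM1-OE and 1016, 1009 and 1027 in Anti (log2FC -0.52 ± 0.013, edgeR adjusted p = 1e-300). The large chaperone HYOU1 had 33.4, 34 and 32.4 in CRLM1-OE and 84.5, 84.5 and 84.8 in Anti (log2FC -1.39 ± 0.022), and the disulfide isomerase PDIA4 had 101, 103 and 102 in CRLM1-OE and 215, 216 and 217 in Anti (log2FC -1.12 ± 0.019). In each of these the CRLM1-OE samples lay below every Anti sample, and Ctrl lay between for all 3 (52.5, 52 and 51.4 for HYOU1).

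SEL1L, an adaptor of the degradation complex (log2FC -1.34 ± 0.035), the kinase inhibitor DNAJC3 (-1.34 ± 0.039) and SDF2L1 (-1.04 ± 0.033) were also called down. The factor XBP1 had 61, 60.1 and 59.4 in CRLM1-OE and 95.3, 97.8 and 96.7 in Anti FPKM (log2FC -0.73 ± 0.024), and ATF6 fell too (log2FC -0.56 ± 0.032). ERN1, which encodes the sensor that splices XBP1 mRNA, rose slightly, with 5.83, 5.56 and 5.25 in CRLM1-OE and 4.02, 4.09 and 4.1 in Anti (log2FC 0.40 ± 0.038), as did EDEM1 (log2FC 0.21 ± 0.054). Spliced and unspliced XBP1 are not separated in gene counts.

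The ATF4 response, which cells use to make and import amino acids under stress, showed the same direction. Of 33 listed genes measured, 26 were lower, 5 higher and 2 did not pass, 7 were called down, 1 was called up and the median log2FC was -0.67. ATF4 itself had FPKM values of 194, 191 and 190.3 in CRLM1-OE and 256, 252 and 254 in Anti (log2FC -0.45 ± 0.018). ATF5, a related factor, had 2.2, 2.05 and 2.18 in CRLM1-OE and 9.8, 9.88 and 9.96 in Anti, 4.75-fold lower (log2FC -2.25 ± 0.071), and SLC7A11, the cystine and glutamate exchanger, had 1.71, 1.6 and 1.69 in CRLM1-OE and 7.5, 7.49 and 7.24 in Anti (log2FC -2.19 ± 0.043). Neither gene had overlapping groups, and Ctrl lay between at 5.5, 5.72 and 5.61 and 5.09, 4.79 and 4.8.

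Transporters SLC6A9 (log2FC -1.57 ± 0.094) and SLC1A4 (-1.55 ± 0.067) and the mitochondrial carboxykinase PCK2 (-1.18 ± 0.035) were called down. Asparagine synthetase ASNS had 129, 128 and 123 in CRLM1-OE and 201, 201 and 200.3 in Anti FPKM (log2FC -0.71 ± 0.019). PPP1R15A, which encodes the phosphatase subunit GADD34 that reverses eIF2 phosphorylation, was the one member called up, with 291, 295 and 289 in CRLM1-OE and 118, 115 and 119 in Anti (log2FC 1.27 ± 0.019). Cytosolic aminoacyl-tRNA synthetases, which load tRNAs, were lower in 17 of 20 cases and higher in 0, with a median log2FC of -0.38. WARS, for tryptophan, had 17.6, 17.8 and 17.3 in CRLM1-OE and 47.2, 46.9 and 46.8 in Anti (log2FC -1.47 ± 0.026), IARS had 17.4, 16.7 and 17.3 in CRLM1-OE and 43.5, 44.1 and 42.6 in Anti (log2FC -1.39 ± 0.026), and LARS had a log2FC of -0.92 ± 0.025.

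Inducible chaperones of the cytosol rose in part. Heat-shock factor HSF1 turns on HSPA1A, HSPA1B and HSPA6 when cytosolic proteins unfold. Of the 25 listed heat-shock genes, 15 were higher, 3 lower and 7 did not pass, 5 were called up and the median log2FC was 0.21. HSPA6 had FPKM values of 3.87, 4.5 and 4.72 in CRLM1-OE and 0.49, 0.75 and 1.04 in Anti (log2FC 2.49 ± 0.11, edgeR adjusted p = 8.18e-106), with Ctrl at 0.24, 0.26 and 0.32. HSPA1A had 55.5, 28.3 and 45.1 in CRLM1-OE and 10.2, 5.14 and 4.87 in Anti (log2FC 2.62 ± 0.038) and HSPA1B had 289, 364 and 349 in CRLM1-OE and 107, 110.2 and 109.8 in Anti (log2FC 1.57 ± 0.019). HSPA1A and HSPA1B are near-identical copies whose reads the uniquely mapped counts can split unevenly, so the values of each are uncertain, and the HSPA1A values were uneven within both groups. With 1 sample left out, the log2FC of HSPA1A ranged from 2.39 to 3.06, so its SE of 0.038 understates the spread between samples. Even so the lowest CRLM1-OE value of either gene lay above its highest Anti value.

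The small chaperone HSPB8 rose (log2FC 1.09 ± 0.069), as did the cochaperones DNAJB1 with 482, 488 and 479 in CRLM1-OE and 289.6, 291 and 286 in Anti FPKM (log2FC 0.70 ± 0.016) and BAG3 with 70.7, 70.9 and 68.8 in CRLM1-OE and 39.2, 39 and 41 in Anti (log2FC 0.77 ± 0.025). HSP90AA1, the inducible HSP90, fell (log2FC -0.33 ± 0.019), and so did the mitochondrial chaperonin HSPD1 (-0.49 ± 0.019). HSF1 was at 74.7 against 70.5 FPKM (log2FC 0.04 ± 0.024, edgeR adjusted p = 0.272), passed as higher on total counts (adjusted p = 1.20e-04) and passed as lower with the trends of GC content and length removed (log2FC -0.0747, adjusted p = 0.00361).

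The promoters of HSPA1A, at chr6:31815293-31815592, and HSPA6, at chr1:161524290-161524589 (GRCh38.p14, plus strand), are shown with GAANNTTC and TCACNCNAC matches in capitals.
HSPA1A: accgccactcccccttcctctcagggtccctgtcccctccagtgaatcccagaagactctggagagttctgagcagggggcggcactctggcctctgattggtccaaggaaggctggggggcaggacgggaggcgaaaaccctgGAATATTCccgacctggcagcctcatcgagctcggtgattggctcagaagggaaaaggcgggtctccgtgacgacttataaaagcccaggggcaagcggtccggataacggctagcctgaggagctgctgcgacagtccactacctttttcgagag
HSPA6: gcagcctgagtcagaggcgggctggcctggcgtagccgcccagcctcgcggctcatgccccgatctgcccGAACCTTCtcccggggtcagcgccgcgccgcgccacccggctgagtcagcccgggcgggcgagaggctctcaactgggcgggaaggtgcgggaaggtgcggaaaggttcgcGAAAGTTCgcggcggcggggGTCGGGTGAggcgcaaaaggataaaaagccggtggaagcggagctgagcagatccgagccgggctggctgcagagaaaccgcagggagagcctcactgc
GAANNTTC begins at -106 from the start in HSPA1A and at -180 and -69 in HSPA6, and TCACNCNAC lies on the minus strand at -49 in HSPA6.

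AP-1 subunits and other immediate early genes, which cells induce within minutes of growth factor or stress signals, rose in larger part. Of the 11 AP-1 family genes, 6 were higher and 1 lower, and 3 were called up. FOS had FPKM values of 37.2, 37.9 and 37.9 in CRLM1-OE and 7.62, 7.69 and 6.63 in Anti (log2FC 2.32 ± 0.037, edgeR adjusted p = 1e-300), and FOSB had 5.63, 5.85 and 6.1 in CRLM1-OE and 1.28, 1.23 and 1.25 in Anti (log2FC 2.18 ± 0.063). Their partner JUN had 193, 192 and 188 in CRLM1-OE and 105, 104 and 102 in Anti (log2FC 0.84 ± 0.018). Ctrl was near Anti in all 3 (7.61, 8.71 and 8.06 for FOS), and no CRLM1-OE value fell within the range of Anti. FOSL1, the most abundant FOS relative, went the other way, with 174, 178 and 174 in CRLM1-OE and 219, 226 and 221 in Anti (log2FC -0.39 ± 0.02).

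Of the 25 immediate early genes, 15 were higher, 7 lower and 3 did not pass, with a median log2FC of 0.35. EGR1 had FPKM values of 69.4, 69 and 70.0 in CRLM1-OE and 43.3, 43.6 and 43.7 in Anti (log2FC 0.63 ± 0.024), the orphan receptor NR4A1 had 16.6, 17 and 16.3 in CRLM1-OE and 6.41, 7.18 and 6.43 in Anti (log2FC 1.27 ± 0.039) and EGR3 was low at 0.86, 1.18 and 1.13 in CRLM1-OE and 0.40, 0.49 and 0.30 in Anti (log2FC 1.34 ± 0.14). IER5 rose (log2FC 0.99 ± 0.024), whereas IER5L (-1.10 ± 0.029) and MYC (-0.25 ± 0.019) fell. In the 20 ERK feedback and output genes, 10 were higher and 5 lower. The nuclear phosphatases DUSP1 and DUSP2, with 145, 139.9 and 141 in CRLM1-OE and 74, 73.7 and 73.2 in Anti FPKM (log2FC 0.90 ± 0.023) and 21.4, 22.3 and 22.4 in CRLM1-OE and 7.9, 7.41 and 6.76 in Anti (log2FC 1.53 ± 0.053), had the largest rises, while DUSP6, the ERK-specific phosphatase, fell (log2FC -0.23 ± 0.029), and so did SPRY4 (-0.44 ± 0.029).

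Genes of the NRF2 and heme breakdown group moved both ways. NRF2, encoded by NFE2L2 and held back by KEAP1, drives antioxidant enzymes. Of 31 genes, 13 were higher and 14 lower, 2 were called up and the median log2FC was -0.10. Heme oxygenase HMOX1 had FPKM values of 64.4, 65.3 and 63.1 in CRLM1-OE and 25.9, 25.4 and 24.3 in Anti (log2FC 1.3 ± 0.031, edgeR adjusted p = 1e-300), and the ferritin light chain FTL had 5952, 6006 and 5965 in CRLM1-OE and 2903, 2869.6 and 2867 in Anti (log2FC 1.01 ± 0.012). For FTL the log2FC of CRLM1-OE over Ctrl was 0.45 and that of Anti over Ctrl -0.58. The ferritin heavy chain FTH1 fell (log2FC -0.34 ± 0.013), as did NQO1 (-0.52 ± 0.023), NFE2L2 (-0.49 ± 0.035) and KEAP1 (-0.69 ± 0.033). Of 6 metallothionein and zinc genes, 4 were lower and 2 higher. MT1E had 25.8, 25.9 and 28.3 in CRLM1-OE and 72, 72 and 68.9 in Anti (log2FC -1.46 ± 0.038), and MT2A, the most abundant, had overlapping values of 251, 255 and 280.2 in CRLM1-OE and 305, 283 and 281 in Anti (log2FC -0.19 ± 0.021). Metallothionein genes are close copies, which makes their counts uncertain.

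DNA replication genes were lower in CRLM1-OE than in Anti, whereas mitosis genes moved both ways. Origins of replication are loaded with the MCM2 to MCM7 helicase in G1, and E2F1 drives these genes. Of 42 replication genes, 36 were lower, 0 higher and 6 did not pass, 9 were called down and the median log2FC was -0.56. Their median log2FC relative to Ctrl was -0.334 in CRLM1-OE and 0.277 in Anti. MCM4 had FPKM values of 7.65, 7.46 and 7.3 in CRLM1-OE and 19, 18 and 19 in Anti (log2FC -1.37 ± 0.037) and MCM3 had 7.65, 7.65 and 7.56 in CRLM1-OE and 17.8, 17.8 and 16.6 in Anti (log2FC -1.24 ± 0.042). Cyclin E2, CCNE2, had 0.35, 0.31 and 0.25 in CRLM1-OE and 0.99, 1.12 and 1.05 in Anti (log2FC -1.84 ± 0.16). All CRLM1-OE values of these 3 genes lay below all Anti values, and Ctrl lay between (12.9, 12.7 and 12.4 for MCM4).

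The polymerase subunit POLA1 (log2FC -1.70 ± 0.14), the initiation factor MCM10 (-1.30 ± 0.094) and E2F1 (-1.25 ± 0.077) were called down as well. The sliding clamp PCNA fell less, with 40.6, 39.8 and 38.4 in CRLM1-OE and 45.4, 48.9 and 47.8 in Anti FPKM (log2FC -0.30 ± 0.033). Of 41 mitosis genes, 17 were higher, 11 lower and 13 did not pass, with a median log2FC of 0.03. CDC20, the activator of the anaphase-promoting complex, had 105, 103 and 101 in CRLM1-OE and 42.2, 41.7 and 42.9 in Anti (log2FC 1.24 ± 0.026). Securin PTTG1 (0.91 ± 0.047) and the kinase PLK1 (0.51 ± 0.049) also rose, while the proliferation antigen MKI67 (-0.65 ± 0.047) and the spindle motor KIF11 (-0.77 ± 0.13) fell. For PTTG1 the log2FC of CRLM1-OE over Ctrl was 0.33 and that of Anti over Ctrl -0.60. No phase of the cell cycle was measured here.

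The p53 target genes act in cell cycle arrest, repair and cell death. Of 29 listed, 20 were lower and 5 higher, with a median log2FC of -0.39. The cell cycle inhibitor CDKN1A had FPKM values of 299.8, 302 and 293 in CRLM1-OE and 379, 379 and 380.2 in Anti (log2FC -0.39 ± 0.017) and MDM2, a ubiquitin ligase, had 4.41, 4.14 and 4.18 in CRLM1-OE and 5.61, 5.87 and 5.72 in Anti (log2FC -0.48 ± 0.033). The groups did not overlap in either gene. Relative to Ctrl, the median log2FC of the p53 list was -0.147 in CRLM1-OE and 0.137 in Anti. For CDKN1A these values were -0.21 and 0.16, while MDM2 lay above Ctrl in both groups (0.10 and 0.56). FAS, the death receptor, and TIGAR were called down (log2FC -1.16 ± 0.098 and -1.0 ± 0.085). Of 17 BCL2 family genes, 10 were lower and 3 higher than in Anti, and both death-promoting and survival members were among those that fell: BOK (log2FC -1.09 ± 0.046), BIK (-0.91 ± 0.046) and BBC3 (-0.21 ± 0.027) on one side, MCL1 (-0.33 ± 0.025) and BCL2L1 (-0.33 ± 0.019) on the other. Relative to Ctrl, the median of this list was -0.13 in CRLM1-OE and 0.103 in Anti. MCL1 lay above Ctrl in both groups (0.14 and 0.44), and BCL2L1 was at -0.20 in CRLM1-OE and 0.10 in Anti. BMF, a death-promoting member, was low but called up, with 0.35, 0.28 and 0.34 in CRLM1-OE and 0.12, 0.12 and 0.19 in Anti FPKM (log2FC 1.14 ± 0.22).

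**Figure D4:**
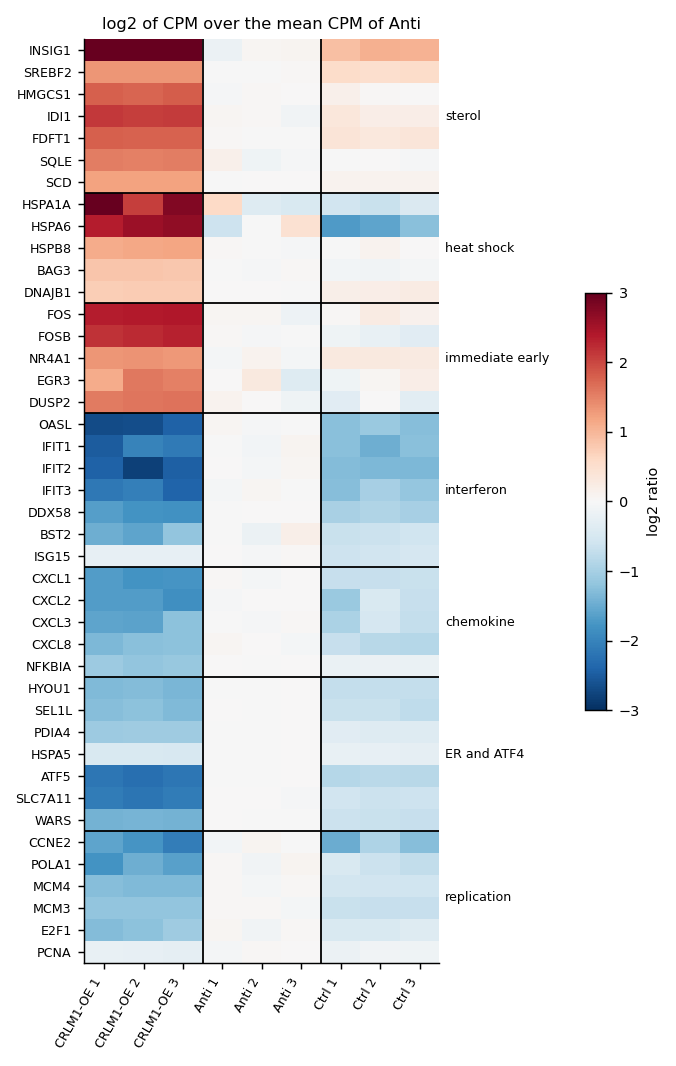
Log2 ratio of CPM in each of the 9 libraries (columns) to the mean CPM of Anti for 42 genes of 7 groups (rows), coloured from -3 (blue) to 3 (red). Sterol, heat-shock and immediate early genes are red in the CRLM1-OE columns, the interferon, chemokine, ER and ATF4, and replication genes are blue there, and the Ctrl columns are paler than the CRLM1-OE columns in most rows.

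Transcription factors of the epithelial-mesenchymal transition (EMT) and mesenchymal genes were in part higher. Of 15 measured, 8 were higher, 2 lower and 5 did not pass, 3 were called up, 1 was called down, and the median log2FC was 0.82 over 12 members. SNAI1, a repressor of epithelial genes, had FPKM values of 10.3, 10.4 and 9.86 in CRLM1-OE and 4.75, 4.95 and 4.81 in Anti (log2FC 1.03 ± 0.071, edgeR adjusted p = 1.47e-45). SNAI2 had 2.0, 2.12 and 1.67 in CRLM1-OE and 1.1, 1.0 and 1.13 in Anti (log2FC 0.80 ± 0.13) and SNAI3 had 2.17, 2.39 and 2.39 in CRLM1-OE and 1.25, 1.34 and 1.14 in Anti (log2FC 0.84 ± 0.14). The levels of SNAI2 and SNAI3 were a few FPKM in every library, but the groups did not overlap.

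Vimentin, VIM, the intermediate filament of mesenchymal cells, was near the bottom of the range at 0.94, 1.29 and 1.28 in CRLM1-OE and 0.46, 0.50 and 0.36 in Anti FPKM (log2FC 1.35 ± 0.18), and fibronectin FN1 had 3.85, 3.96 and 3.54 in CRLM1-OE and 1.86, 1.81 and 1.92 in Anti (log2FC 0.97 ± 0.051). ZEB1 was at 0.19, 0.18 and 0.26 in CRLM1-OE and 0.15, 0.090 and 0.12 in Anti (log2FC 0.72 ± 0.22, edgeR adjusted p = 0.0036, and 0.0656 without CRLM1-OE replicate 3) and TWIST1 at a log2FC of 0.99 ± 0.18. The antisense transcript ZEB1-AS1 did not pass (log2FC 0.11 ± 0.18, edgeR adjusted p = 0.688). S100A4, a calcium-binding protein often found in mesenchymal cells, was the most abundant of the list and fell, with 69.7, 66.3 and 69.5 in CRLM1-OE and 182, 181 and 182 in Anti (log2FC -1.45 ± 0.029).

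Junction and keratin genes had no common direction, with 11 of 33 higher, 12 lower and a median log2FC of -0.03. E-cadherin, CDH1, had FPKM values of 21.3, 22 and 20.8 in CRLM1-OE and 22.4, 22.3 and 22.5 in Anti (log2FC -0.11 ± 0.027, edgeR adjusted p = 1.03e-04), a small fall that did not pass on total counts (adjusted p = 0.0867). KRT18 had 426, 428 and 424 in CRLM1-OE and 810.3, 829 and 839 in Anti (log2FC -1.0 ± 0.015), and EPCAM fell (log2FC -0.37 ± 0.024). The tight junction genes CLDN4, with 163, 163 and 160.2 in CRLM1-OE and 73.6, 75.1 and 73.6 in Anti (log2FC 1.08 ± 0.019), and CGN (log2FC 0.96 ± 0.047) rose.

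Matrix and adhesion genes were as divided. Of 26 integrins, 7 were higher and 8 lower, and the alpha subunits ITGAV and ITGA2 fell (log2FC -0.73 ± 0.056 and -0.71 ± 0.034). Of 25 laminins and collagens, 6 were higher and 9 lower. COL13A1, a transmembrane collagen, had 18.3, 17.4 and 17.5 in CRLM1-OE and 6.65, 6.74 and 7.35 in Anti FPKM (log2FC 1.31 ± 0.044), the anchoring fibril COL7A1 rose from a low level (log2FC 1.81 ± 0.1), and the hemidesmosome collagen COL17A1 fell (log2FC -1.56 ± 0.072). Of 28 metalloproteinases, plasminogen activators and inhibitors, 11 were higher and 8 lower. Urokinase PLAU had 85.3, 84.9 and 82.6 in CRLM1-OE and 170.2, 169.9 and 174 in Anti (log2FC -1.07 ± 0.02), the matrix protease MMP7 fell (log2FC -1.54 ± 0.19), and the inhibitor TIMP2 had 56.9, 56.6 and 54.8 in CRLM1-OE and 27.3, 28.7 and 29.4 in Anti (log2FC 0.93 ± 0.024).

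Axon guidance ligands, which also steer epithelial and endothelial cells, were higher in 13 of 34 cases (38.2%) and lower in 5 (14.7%), with a median log2FC of 0.23. Of all genes whose mean count reached 50, 33.3% were higher and 38.7% lower, and of all genes tested 17.1% and 18.5%. Only 28 of the 34 ligands reached a mean count of 10, so neither class is a like one. The share of higher ligands lay nearer that of the first class and is not read as a result about the ligands. The membrane-anchored semaphorin SEMA7A had FPKM values of 50.9, 50.9 and 50.3 in CRLM1-OE and 20.9, 19.5 and 19.2 in Anti (log2FC 1.3 ± 0.026). Among 28 receptors, 10 were higher and 7 lower. NRP1, a coreceptor for semaphorins and VEGF, had 0.47, 0.49 and 0.40 in CRLM1-OE and 1.45, 1.28 and 1.46 in Anti (log2FC -1.68 ± 0.082), and the netrin receptor UNC5A had 2.35, 2.47 and 2.68 in CRLM1-OE and 1.08, 1.07 and 1.16 in Anti (log2FC 1.14 ± 0.096). SEMA7A and UNC5A were higher in every CRLM1-OE sample than in any Anti sample, and NRP1 was lower.

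TGF-beta, Wnt, YAP and forkhead groups each had at most 3 called members in one direction. Of 40 TGF-beta and BMP genes, 11 were higher and 15 lower. BMP4 had FPKM values of 14, 13.2 and 13.3 in CRLM1-OE and 6.7, 7.14 and 6.98 in Anti (log2FC 0.92 ± 0.055), and the inhibin subunit INHBB, with a mean count under 50, was called up (log2FC 1.52 ± 0.38). SMAD2 (-0.31 ± 0.029) and the ligase SMURF2 (-0.34 ± 0.022) fell and BMP7 rose (0.15 ± 0.06), of which SMAD2 and BMP7 did not pass with the trends of GC content and length removed (edgeR adjusted p = 0.807 and 0.555), and SMAD6 was at 0.12 ± 0.12 (edgeR adjusted p = 0.536). Of 24 Wnt genes, 10 were higher and 6 lower, and the feedback inhibitors AXIN2 and NKD1 were called up, at 0.95, 0.93 and 0.84 in CRLM1-OE and 0.40, 0.34 and 0.40 in Anti (log2FC 1.21 ± 0.14) and a log2FC of 1.04 ± 0.081. The 20 YAP and TEAD genes split evenly, with 9 higher and 9 lower, YAP1 lower (log2FC -0.63 ± 0.035), and ANKRD1, with a mean count under 10, higher (2.92 ± 0.58). Of 26 forkhead factors, 10 were higher and 6 lower. FOXF1 rose (log2FC 0.61 ± 0.14), FOXD3 was at -0.07 ± 0.35 (edgeR adjusted p = 0.903), and FOXQ1, with a mean count under 50, was called down (-1.04 ± 0.29).

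Mucin O-glycan enzymes, which start and extend sugar chains on serine and threonine, were higher in 8 and lower in 9 of 34 cases, and 0 were called. GALNT3 had FPKM values of 6.01, 5.41 and 5.42 in CRLM1-OE and 2.84, 2.74 and 2.94 in Anti (log2FC 0.94 ± 0.063), GALNT2 rose (0.58 ± 0.034), and GALNT1 fell, with 2.78, 2.98 and 2.86 in CRLM1-OE and 4.93, 5.48 and 5.3 in Anti (log2FC -0.91 ± 0.06). GALNT5 was at 0.07 ± 0.035 (edgeR adjusted p = 0.136), and at 0.29 (adjusted p = 1.81e-16) with the trends of GC content and length removed. The cell surface mucin MUC16, at the lower end of the ranked genes, was expressed at 0.020, 0.010 and 0.010 in CRLM1-OE and 0.11, 0.10 and 0.11 in Anti FPKM (log2FC -2.96 ± 0.17).

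Hypoxia, glycolysis and clock genes moved both ways, and mitochondrially encoded mRNAs were mostly lower. Of 29 hypoxia-induced genes, 13 were higher and 14 lower, with CA9, the surface carbonic anhydrase, at 0.61, 0.26 and 0.44 in CRLM1-OE and 1.56, 1.15 and 1.63 in Anti FPKM (log2FC -1.74 ± 0.2), HIF1A lower (-0.62 ± 0.043) and VHL, the ligase that removes it, called down (-1.0 ± 0.034). CA9 was higher in Ctrl, at 2.26, 2.92 and 2.36, than in either arm of this comparison. Of 15 glycolysis enzymes, 6 were higher and 6 lower, and the aldolase ALDOC was called up, with 111, 111 and 108 in CRLM1-OE and 47.8, 49.1 and 48.8 in Anti (log2FC 1.13 ± 0.025), where Anti lay below Ctrl (log2FC of Anti over Ctrl -0.96). Of 13 mitochondrially encoded mRNAs, 10 were lower and 2 higher, with a median log2FC of -0.39: cytochrome b, MT-CYB, had 1249, 1252 and 1243 in CRLM1-OE and 1839, 1869 and 1849 in Anti (log2FC -0.62 ± 0.014) and MT-CO1 had 8521, 8723 and 8560.2 in CRLM1-OE and 11482, 11709.8 and 11686 in Anti (log2FC -0.48 ± 0.0095). Of 20 clock genes, 7 were higher and 7 lower, with the factor HLF called down from a low level (log2FC -1.74 ± 0.21).

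Of the remaining genes at the upper end, GSDMB, a gasdermin, had FPKM values of 7.21, 7.48 and 7.05 in CRLM1-OE and 1.38, 1.21 and 1.58 in Anti (log2FC 2.34 ± 0.1). LIPG, endothelial lipase, had 1.36, 1.31 and 1.26 in CRLM1-OE and 0.24, 0.28 and 0.26 in Anti (log2FC 2.30 ± 0.091), and ATG9B, a lipid scramblase of autophagy, had 1.38, 1.32 and 1.42 in CRLM1-OE and 0.12, 0.13 and 0.19 in Anti (log2FC 3.19 ± 0.18). These were weakly expressed genes, all of them separate between the groups. The channel subunit ASIC4 had 1.47, 1.51 and 1.55 in CRLM1-OE and 0.54, 0.23 and 0.22 in Anti (log2FC 2.12 ± 0.16) and the amine oxidase AOC3 1.1, 0.99 and 1.18 in CRLM1-OE and 0.30, 0.18 and 0.29 in Anti (log2FC 2.05 ± 0.15). Of the 34 genes the study names for its experiments, 19 were higher, 9 lower and 6 did not pass. This list was picked with these samples in hand, so its directions are not independent evidence.

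At the lower end, ITPRIPL2 had FPKM values of 3.16, 3.31 and 3.05 in CRLM1-OE and 15, 14.6 and 15.1 in Anti (log2FC -2.28 ± 0.036), and FERMT1, which encodes the integrin activator kindlin-1, had 2.2, 2.35 and 2.0 in CRLM1-OE and 9.22, 9.25 and 9.3 in Anti (log2FC -2.13 ± 0.051). The long noncoding RNA LINC00941 had 0.32, 0.37 and 0.47 in CRLM1-OE and 2.72, 2.49 and 2.14 in Anti (log2FC -2.71 ± 0.18). In each, Ctrl lay between the groups (6.64, 6.98 and 6.46 for ITPRIPL2). PIGW, an enzyme of GPI anchor synthesis, and POGLUT1, a glucosyltransferase that modifies Notch, fell by like amounts (log2FC -2.25 ± 0.14 and -1.93 ± 0.11).

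GC content moved with the fold change. Among protein-coding genes whose mean count reached 50 and whose transcript sequence was matched, those called up had a median GC content of 55.6% (261 genes), those called down 44.8% (316 genes) and the rest 48.6%. Split by GC content into 5 classes of like size, from the lowest to the highest, the median log2FC went from -0.19 through -0.13, -0.02 and 0.06 to 0.10. Across 5 classes of transcript length it went from 0.02 in the shortest to -0.11 in the longest. With both trends removed, the median log2FC was 0.93 for sterol synthesis enzymes, -0.775 for interferon-stimulated genes, -1.24 for chemokines and cytokines, -0.608 for ER stress genes, -0.662 for ATF4 genes, -0.50 for DNA replication genes and -0.242 for p53 genes. The part of GC content in any one gene's difference was not tested.

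**Figure D5:**
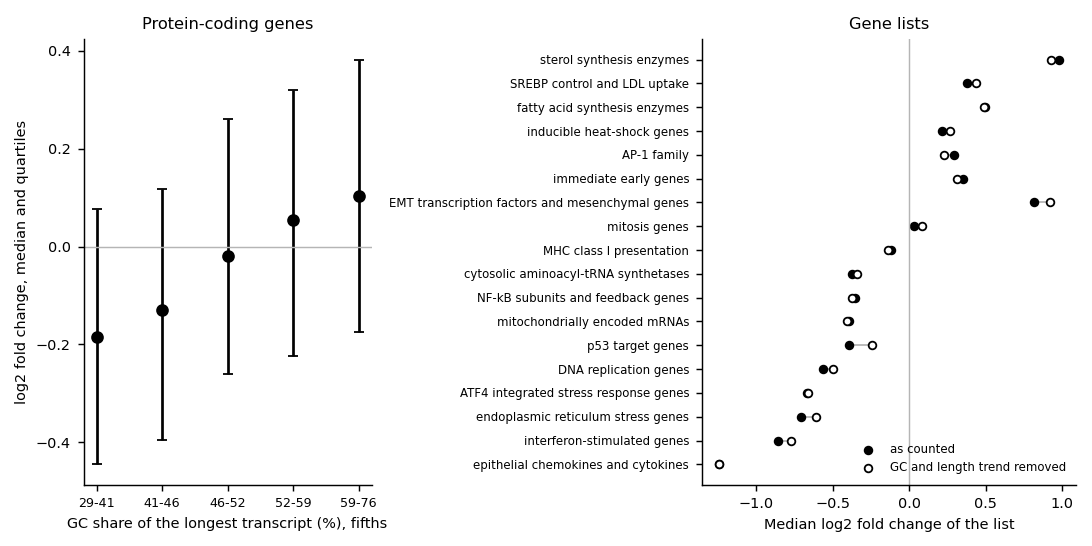
Left, median log2FC of CRLM1-OE over Anti with quartiles (vertical axis) by class of GC content (horizontal axis, 5 classes) for protein-coding genes whose mean count reached 50; right, median log2FC (horizontal axis) of 18 gene groups (rows) as counted (filled circles) and with the trend of GC content and length removed (open circles). The medians rise from -0.19 in the lowest to 0.10 in the highest class, and in each group both circles lie on the same side of 0.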

How the data were processed

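RNA from HCT116 cells was sequenced by the authors in 9 samples, grouped here by their labels, and 6 entered the comparison. The authors trimmed reads with the FASTX-Toolkit, aligned them with TopHat2 to GRCh38 with Gencode annotation and deposited raw counts per gene of the reads that mapped to 1 place, for the genes they list as expressed. FPKM values, also deposited by the authors to 2 decimals, served for levels and for 2 alternatives. Neither the criterion for expression nor the use of strand is given in the sources used here. Reads carry no molecular identifiers. The SE values come from the edgeR fit described next, which estimates the spread between samples as well as counting error.

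edgeR 4.0.16 (R 4.3.3) was run on the counts with glmQLFit and glmQLFTest, TMM factors and no covariate for every gene with at least 1 count in the 6 samples, and p-values were adjusted by Benjamini-Hochberg over all of them. SE is the log2FC divided by the square root of F. Adjusted p below 1e-300 is written as 1e-300. An exact permutation test of 3 against 3 cannot go below 0.1 and was not used. Gene groups were described by counts and medians without a test of the group. The members and lists were chosen with earlier results of these data known, and 30 of 1021 list entries were not tested. Genes named in the text are CRLM1, genes the study names, the 12 highest and 12 lowest log2FC values among called genes whose mean count reached 100, and up to 6 members per list with the largest absolute log2FC among those that passed at a mean count of at least 50, with the leading members of each list. A further 32 were named after their values were seen (ANKRD1, BMF, BST2, CDX2, DDX60, DHCR7, DNAJB1, DTX3L, EDEM1, ERN1, FADS1, FOXQ1, FTH1, HSP90AA1, HSPD1, IFI6, IFIH1, IFITM3, IFNL1, INHBB, IRF7, ISG15, MBTPS1, MBTPS2, MCM3, ME1, NFKB2, OAS1, PLK1, PMVK, TNF and TYK2). A few genes that the rule names are not reported here.

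On simulated counts for 28670 genes with 200 planted changes, the test recovered 200, and 7 other genes passed. The size of the planted changes and the level of the genes that held them are not given here. The recovery is therefore no measure of how many called genes are correct, least of all those that rest on 1 library. DESeq2 1.42.0 and limma 3.58.1 served as alternatives. Promoters and their motifs were read from RefSeq on GRCh38.p14. Figures were drawn with matplotlib 3.10.9.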

Additional observations from a re-analysis of the deposited data

How the results depend on the processing

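Requiring at least 10 counts in every sample left 460 genes called up and 441 down, limma on log2(FPKM + 0.1) gave 618 and 412, limma on log2(FPKM + 1) gave 127 and 99, and the adjusted p alone gave 5164 and 5587. The filter tests fewer genes, and a larger pseudocount shrinks the fold of low genes. Leaving out 1 sample gave 828 to 880 up and 704 to 761 down. RLE factors, total counts, filterByExpr, DESeq2, all 9 samples in the fit and removal of the GC and length trends (chosen after seeing the data) kept both counts within 1.5 times. With the replicate number as a block, 807 were called up and 681 down. Residuals of same-numbered samples correlated at -0.023, 0.017 and -0.024, and those of other pairs at -0.0093 to 0.033. No pairing by number was seen, but so few samples cannot show whether same-numbered samples were prepared together. BMP7 was the one named gene to lose its adjusted p (0.0515) under the block.

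Of the recomputed log2FC values of the 204 named genes, 3203 kept direction and side of the threshold. With the GC and length trends removed, the sign turned for SREBF1 (-0.00992), B2M (0.0165), HSF1 (-0.0747), RELA (-0.0199) and SMAD6 (-0.0206). SCAP turned to 0.0471 on total counts, 0.00236 with at least 10 counts in every sample, 0.0336 and 0.0316 under limma (pseudocounts 0.1 and 1) and ranged from -0.0342 to 0.00243 with 1 sample left out, highest without Anti replicate 3. With 1 sample left out, FOXD3 ranged from -0.19 to 0.0924 (above 0 without CRLM1-OE replicate 2 or Anti replicate 2), SMAD6 from -0.0338 to 0.223 and ZEB1-AS1 from -0.0193 to 0.214, both below 0 without CRLM1-OE replicate 1. None of these but SREBF1 and B2M passed as reported. Genes that did not pass as reported but did under at least 1 alternative were GALNT5 (6 alternatives, log2FC 0.0749 to 0.291), RELA (5, 0.0631 to 0.115), HSF1 (5, lower at -0.0747 with the trends removed and higher under the others), SCAP (-0.142 with the trends removed) and CDX2 (-0.18 with the trends removed). The cause was not tested. ABCA1, B2M, BMP7, CD68, CDH1, MT2A, SMAD2 and ZEB1 lost their adjusted p under at least 1 alternative. The median of 33 of 41 gene groups kept its sign under every alternative. Those that did not (interferons and receptors, hypoxia, glycolysis, junction, integrin, laminin, TGF-beta and clock genes) lay near 0.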

Other observations

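Small nucleolar RNAs (snoRNAs), which guide the chemical modification of ribosomal RNA and are mostly released from introns, were looked at after their values were seen. Of 252 tested, 26 (10.3%) were called up and 0 down by edgeR, beside 3.09% and 2.56% of all genes tested. By the adjusted p, 34 were higher and 0 lower, where 17.1% and 18.5% of all genes tested were. Most snoRNAs were low, and those called had a median mean count of 11. Of the 38 whose mean count reached 10, 36 had a positive log2FC. SNORD3A, which encodes the U3 RNA of rRNA cleavage, had 865, 750 and 982 counts in CRLM1-OE and 295, 265 and 262 in Anti (log2FC 1.60), with 1213, 973 and 1179 in Ctrl. SNORD14E had 53, 47 and 44 against 10, 7 and 6 (log2FC 2.57), with 13, 15 and 14 in Ctrl. SnoRNAs took 0.0067% to 0.0072% of the counts in CRLM1-OE and 0.0031% to 0.0032% in Anti. They lack a poly(A) tail, so their counts in a library of polyadenylated RNA rest on what was carried through, and the part of library preparation in these differences was not tested.

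The 7SL RNA of the signal recognition particle, another RNA without a poly(A) tail, went the other way. RN7SL1 had 3455, 1756 and 3145 counts in CRLM1-OE and 7779, 7514 and 5940 in Anti (log2FC -1.42), with 6851, 7558 and 8496 in Ctrl. RN7SL2 had 1172, 675 and 1157 against 3008, 2898 and 2308 (log2FC -1.52). The copies are near-identical, so the split between them is uncertain.

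Some called genes rested on 1 library. FP236383.4 on chromosome 21 was called down with 0, 1 and 0 counts in CRLM1-OE and 8, 216 and 1 in Anti, and FP671120.7 was called up with 63, 0 and 0 counts against 0 in each Anti sample. Both were chosen after their values were seen. Such genes are among the 130 called genes with overlapping groups.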
